A study of Mus musculus with 2 samples.

Results

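The nuclear genes of oxidative phosphorylation were examined in microglia sorted from sham-operated mouse brain. Members were the protein-coding genes outside the mitochondrial genome whose symbols begin with Ndufa, Ndufb, Ndufc, Ndufs, Ndufv, Sdha, Sdhb, Sdhc, Sdhd, Uqcr, Cox4, Cox5, Cox6, Cox7, Cox8 or Atp5. The rule found 97 of the 53801 genes listed in both libraries, and it used no measured value. Of these, 83 encode subunits of complexes I to V, and the other 14 comprise 8 assembly factors of complex I, 4 of complex II, the supercomplex factor Cox7a2l and the coupling factor Atp5s.

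Both libraries belong to 1 group, so each value is given for library 1 and then for library 2. The ratio between them is the spread between 2 libraries of 1 mouse each, in which mouse, sorting and library preparation cannot be told apart. The mice were Cx3cr1(CreER/wt) on a C57BL/6 background, with a tamoxifen-inducible Cre recombinase in place of 1 Cx3cr1 allele, and they are the wild-type control of the study. They received tamoxifen at 75 mg/kg on each of 4 days, had sham surgery 14 days after the first injection at 8 to 10 weeks of age, and were described as males in the series' design text. The paper's methods describe older animals of both sexes, and the treatment label of each sample reads none. Cells of the left hemisphere, each sample from 1 mouse brain, were sorted 3 days later as CD11c-, Ly6G-, CD11b+ and CD45low. Libraries of mice with middle cerebral artery occlusion were not analysed here, so no comparison between conditions was made.

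Oxidative phosphorylation takes place in the inner mitochondrial membrane. Complexes I and II pass electrons from NADH and succinate to ubiquinone, complex III passes them to cytochrome c, complex IV passes them to oxygen, and complex V, the ATP synthase, uses the proton gradient built by complexes I, III and IV. A few hydrophobic subunits are encoded by the mitochondrial genome and all others by nuclear genes, and complex II is wholly nuclear. Microglia, the resident macrophages of the brain, use this pathway beside glycolysis, and macrophages shift between them when activated.

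Library 1 held 23381026 counts on genes and library 2 held 41142609, so 3 counts, an approximate upper limit for a count of 0, came to 0.128 and 0.0729 CPM (counts scaled to 1000000 per library). Counting error is therefore smaller in library 2, and all intervals given here cover counting error only. The 10 microglia markers summed to 51226 and 47240 CPM. The 14 markers of the neutrophil lineage, which the Ly6G gate is meant to leave out, summed to 4615 and 62264 CPM, and 14 of 14 were more than 2-fold higher in library 2. Markers of the choroid plexus summed to 44.6 and 584 CPM, those of basophils or mast cells to 0.257 and 169 CPM, and those of erythroid cells to 0.214 and 15 CPM. Endothelial markers summed to 18.7 and 16 CPM, astrocyte markers to 226 and 177 CPM, oligodendrocyte markers to 235 and 242 CPM and neuronal markers to 3.68 and 5.86 CPM. Library 2 thus carried far more RNA of the neutrophil lineage than library 1, and the part of this RNA in any member's level was not tested. In bulk RNA, fewer cells of a type and less RNA per cell cannot be told apart.

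Nearly all members were expressed. At least 10 counts in both libraries were found for 91 of 97 members (93.8%), against 52.4% of all protein-coding genes and 25% of all genes. All 44 members of complex I, all 8 of complex II, all 8 of complex III and all 17 of complex V reached this minimum. In complex IV it was reached by 14 of 20, and the 6 members below it, described with the isoforms, are alternative isoforms of complex IV subunits. The counted members had a median level of 79.0 CPM, whereas all counted genes had 17.9 CPM, and the median member ranked at percentile 83.5 by CPM. Together the 83 subunit genes took 0.810% of the counts of library 1 and 0.954% of those of library 2.

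**Figure D1:**
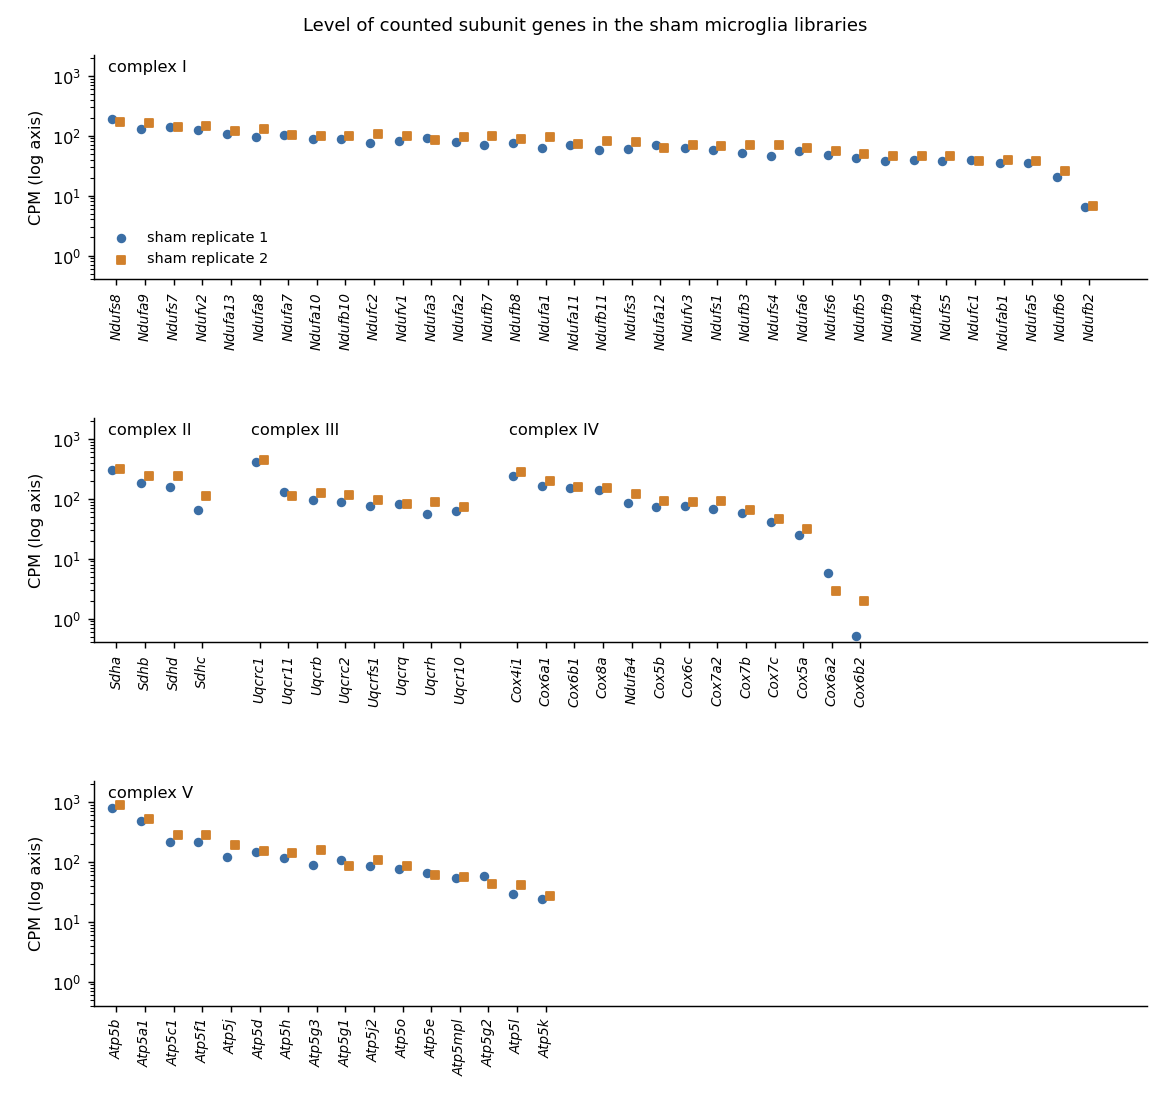
CPM on a log axis of the subunit genes that reached 10 counts in each library, 1 gene of complex I left out, ordered within its complex by level, with library 1 as circles and library 2 as squares. The symbols of most genes lie close together, Atp5b is the highest at 786 and 903 CPM, and Cox6a2 and Cox6b2 in complex IV lie far below the other genes of their complex.

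Genes of complexes I and V made up most of the nuclear total. The 36 complex I subunit genes summed to 2602 and 3036 CPM and the 16 complex V subunit genes to 2656 and 3130 CPM. Complex IV (19 genes, including Ndufa4, which was first assigned to complex I) summed to 1121 and 1328 CPM, complex III (8 genes) to 1010 and 1132 CPM and complex II (4 genes) to 711 and 915 CPM. The sums of complexes I and V differed from each other by less than either differed between the libraries. The same was true of complexes III and IV in library 1, while the order of the 3 levels formed by complexes I and V, by III and IV, and by II was the same in both libraries.

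**Figure D2:**
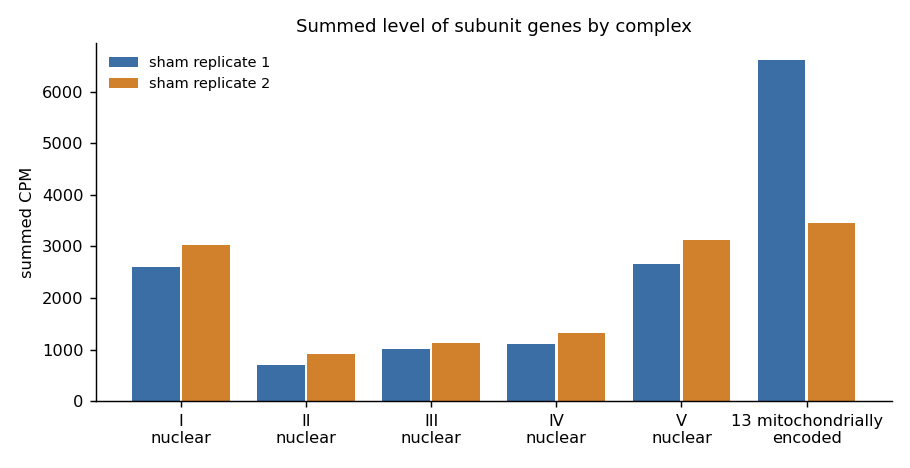
Summed CPM of the nuclear subunit genes of each complex, and of the 13 mitochondrially encoded subunit genes, in library 1 and library 2. Each nuclear sum is higher in library 2, while the mitochondrially encoded sum is 6615 CPM in library 1 and 3462 CPM in library 2.

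Levels of different genes were compared per length, as TPM (counts divided by length and scaled to 1000000 per library) over the union of a gene's exons and, beside it, over the length of its principal transcript. On the first scale the median subunit of complex I had 126 and 113 TPM, of complex II 223 and 213, of complex III 223 and 204, of complex IV 134 and 133 and of complex V 112 and 124 TPM. Over principal transcripts these medians were 141 and 149, 236 and 254, 248 and 271, 209 and 195, and 227 and 212 TPM. Complexes II and III had the highest medians on both scales. The complex IV medians include the alternative isoforms Cox6a2 (24.3 and 9.75 TPM over exon unions) and Cox6b2 (1.32 and 4.12 TPM). Both lie below all its other counted genes, so these medians are lower than those of its general subunits alone. Complex V ranked last in library 1 over exon unions. Over principal transcripts, with these isoforms included, it ranked between complexes IV and II, so its place depended on the length used.

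The sequences before the transcription start were compared with short motifs of 4 factors known to act on nuclear mitochondrial genes. RefSeq start windows (GRCm38.p6, 250 bases before to 50 after the start) were matched for 80 members, 2 of them by a synonym, and 17 had none. The nuclear respiratory factor 1 motif GCATGCGC, searched on both strands, lay in the windows of 12 of 80 members (15%), against 3.05% of all genes with a window and 6.05% of those counted here. The YY1 motif AAGATGGCG was found in 8 members (10.0%, against 3.67% of counted genes), the GABP motif ACCGGAAG in 7 (8.75%, against 5.67%) and the ERR motif TCAAGGTCA in 2 (2.5%, against 0.310%). These shares are descriptions of the letters in the windows and do not show binding. The median GC content of the members' windows was 58.7%, close to the 60.3% of counted genes and above the 52.7% of all windows. Of the 8 YY1 matches, 7 reached or lay past the transcription start, whereas 9 of 13 nuclear respiratory factor 1 matches ended before it.

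For 7 genes the match and its flanks lie upstream of the start in both RefSeq and GENCODE M21, and these are shown, since they are the shared sequence of these genes that the rule did not use. Letters run 5′ to 3′ on the gene's strand, and capitals mark the motif. The first 4 hold the nuclear respiratory factor 1 motif, 3 of them as a 10-base palindrome that matches on both strands and was counted once.
Ndufa11, chr17:56717677-56717736, plus strand, 51 bases before the start: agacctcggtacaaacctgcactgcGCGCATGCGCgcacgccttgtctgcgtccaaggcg
Ndufaf4, chr4:24897945-24898004, plus strand, 104 bases before the start: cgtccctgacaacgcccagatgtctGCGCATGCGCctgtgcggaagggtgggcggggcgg
Cox6a1, chr5:115349086-115349145, minus strand, 153 bases before the start: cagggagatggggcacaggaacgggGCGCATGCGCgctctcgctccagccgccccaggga
Ndufa6, chr15:82354342-82354399, minus strand, 76 bases before the start: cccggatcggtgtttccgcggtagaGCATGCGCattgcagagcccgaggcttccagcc
The next hold the GABP motif, read here from the other strand, and the last the ERR motif, also from the other strand.
Sdhd, chr9:50603863-50603920, minus strand, 39 bases before the start: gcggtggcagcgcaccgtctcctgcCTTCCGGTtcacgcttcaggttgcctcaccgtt
Atp5e, chr2:174464171-174464228, minus strand, 95 bases before the start: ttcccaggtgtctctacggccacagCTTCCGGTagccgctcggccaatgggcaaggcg
Atp5g3, chr2:73911345-73911403, minus strand, 44 bases before the start: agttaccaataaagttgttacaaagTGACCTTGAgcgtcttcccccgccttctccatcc

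In complex I, the 7 nuclear core subunits, among them those with the flavin and the iron-sulfur clusters that lead electrons to ubiquinone, summed to 785 and 873 CPM. Ndufs8, which holds a pair of the clusters, had 420 and 305 TPM, and Ndufs7, next to the ubiquinone site, had 228 and 189 TPM. Ndufv2, of the NADH-oxidising module, had 163 and 152 TPM, below both of these in each library. Ndufv1, which binds the flavin and NADH, followed at 87.9 and 86.7 TPM, and Ndufs3, a core subunit without a cluster, with 77.4 and 83.1 TPM, lay close to it. Ndufs1, the largest core subunit, was the lowest of the 7 at 20.4 and 19.4 TPM over the exon union and at 44.2 and 42.7 TPM over its principal transcript. Core subunits that occur in equal number in the complex thus spanned 18.3-fold in mean TPM over exon unions. The span was narrower over principal transcripts, where means ran from 43.5 TPM for Ndufs1 to 335 TPM for Ndufs8. On that scale Ndufs3 (115 and 126 TPM) was above Ndufv1 (99.5 and 99.9 TPM). Ndufs3 has near-identical stretches in 2 other genes over 83.8% of its transcript, which leaves its level uncertain.

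The 29 supernumerary subunits of complex I, which surround the core, summed to 1817 and 2163 CPM. Ndufa1, a small membrane-arm subunit encoded on the X chromosome, had the highest mean of complex I over exon unions with 428 and 519 TPM, ahead of Ndufa2 with 390 and 384 TPM and of the core subunit Ndufs8. Over principal transcripts Ndufa7 (387 and 322 TPM) was above Ndufa1 (306 and 377 TPM) in library 1 and below it in library 2. At the lower end stood Ndufb2 with 3.31 and 2.73 TPM and Ndufab1, the mitochondrial acyl carrier protein, with 14.2 and 12.9 TPM. Ndufb2, at chr6:39592574-39603382, had only 153 and 276 counts, or 6.54 and 6.71 CPM, and stayed lowest over its principal transcript at 3.04 and 2.55 TPM, although its transcripts as annotated are long (4371 bases for the longest). Ndufb2 was thus low in both libraries, while the other supernumerary genes lay between the 20.8 and 26.1 CPM of Ndufb6 and the 128 and 165 CPM of Ndufa9.

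All 8 complex I assembly factors, which help build the enzyme but leave it, were counted, and they summed to 172 and 208 CPM. Their levels ran from 4.88 and 7.63 CPM for Ndufaf5, which hydroxylates Ndufs7, to 61.1 and 76.6 CPM for Ndufaf7, a methyltransferase. The median assembly factor had 27.8 and 32.8 TPM. Ndufaf2 shares 65.6% of its exon bases with an antisense gene, and whether the counting used strand is not given in the sources used here, so its 168 and 362 counts may include reads of that gene.

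All 4 subunits of complex II, succinate dehydrogenase, were abundant. Sdha, the flavoprotein that oxidises succinate, had 306 and 317 CPM, the iron-sulfur subunit Sdhb had 185 and 244 CPM, and the membrane anchors Sdhd and Sdhc had 156 and 242 CPM and 64.1 and 113 CPM. Sdha differed little between the libraries and Sdhc most, by a log2 ratio of 0.05 against 0.82. Per length, Sdhd (360 and 450 TPM) was above Sdhb (236 and 249 TPM) and Sdha (211 and 176 TPM), and Sdhc was lowest at 56.1 and 79.7 TPM. Over principal transcripts Sdhd (257 and 327 TPM) was below Sdhb (330 and 355 TPM), so the first place depended on the length used, while Sdha stayed below both and Sdhc lowest. The assembly factors of complex II summed to 67.2 and 91.7 CPM. Sdhaf2, needed to attach the flavin to Sdha, had 37.1 and 50.9 CPM, and Sdhaf1, which serves the iron-sulfur subunit, had 4.41 and 4.69 CPM, with 69.6% of its exon bases under another gene.

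In complex III, the core protein Uqcrc1 had the highest CPM, 418 and 444, whereas the other core protein, Uqcrc2, had 86.9 and 115 CPM. Both occur in equal number in the enzyme, and per length they stood at 288 and 246 TPM and at 96.8 and 103 TPM. The Rieske iron-sulfur protein Uqcrfs1 had 159 and 159 TPM. Over exon unions the small subunit Uqcr11 had the highest level per length at 586 and 405 TPM, followed by Uqcrb (315 and 325 TPM) and Uqcr10 (302 and 283 TPM). Over principal transcripts Uqcrc1, at 514 and 447 TPM, was above both of the latter and, in library 2, above Uqcr11 (603 and 424 TPM). Over exon unions Uqcrc2, Uqcrq (126 and 102 TPM) and the hinge protein Uqcrh (128 and 162 TPM) were lowest. The catalytic subunit Cyc1, which the rule's prefixes do not reach, had 126 and 163 CPM, and its partner, cytochrome c (Cycs), had 49.8 and 57.1 CPM, while the testis form Cyct had 0 counts in both libraries.

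Complex IV was expressed almost wholly through its general isoforms. Cox4i1, the largest nuclear subunit, had 237 and 280 CPM, and Cox6a1, Cox6b1 and Cox8a had 164 and 199, 149 and 160, and 138 and 150 CPM. Cox6a1 (663 and 651 TPM), Cox8a (636 and 555 TPM) and Cox6b1 (598 and 519 TPM) were the highest members of any complex per length over exon unions. Cox6a1 was above the other two in both libraries, and the levels of Cox8a and Cox6b1 overlapped between the libraries. The first places depended on the length used. Over principal transcripts Atp5b of complex V (833 and 785 TPM) and Cox4i1 (630 and 608 TPM) were above Cox6a1 (582 and 581 TPM), Cox8a and Cox6b1. Cox5a, a matrix-side subunit with no isoform in the rule, was the lowest general subunit at 33.5 and 34.8 TPM over the exon union, and also over its principal transcript at 77.9 and 82.3 TPM. Cox7a2l, listed here as a supercomplex factor and not as a subunit, had 58.1 and 75.7 CPM.

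**Figure D3:**
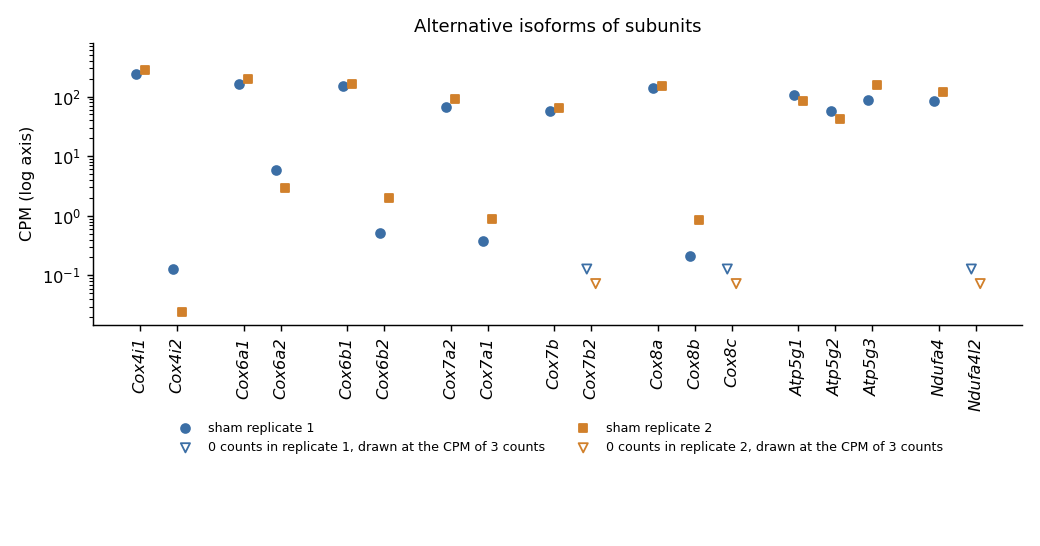
CPM on a log axis of the genes of 8 groups of alternative subunit isoforms, with library 1 as circles and library 2 as squares. Open triangles mark genes with 0 counts, drawn at the CPM of 3 counts. The general isoform of each complex IV subunit lies well above its alternatives, while the 3 genes of the ATP synthase c subunit lie near each other.

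The alternative isoforms under the minimum of counts, several of them named for heart and skeletal muscle, lung or testis, were at or near 0. Cox4i2, the lung isoform, had 3 and 1 counts (0.128 and 0.0243 CPM), which was 0.106% and 0.0171% of the TPM of that subunit, the rest being Cox4i1. Cox7a1, the muscle isoform, had 9 and 37 counts (0.385 and 0.899 CPM), leaving 99.0% and 98.3% to Cox7a2. Cox8b, likewise of muscle, had 5 and 35 counts (0.214 and 0.851 CPM), leaving 99.7% and 99.0% to Cox8a. Each of these minor isoforms stood far below its general form in both libraries. Cox7b2, Cox8c and Ndufa4l2, the hypoxia-responsive relative of Ndufa4, had 0 counts in both libraries, so their levels could lie anywhere under 0.128 and 0.0729 CPM. Ndufa4 itself had 85.3 and 121 CPM.

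Among the alternative isoforms, 2 passed the minimum of counts, and they were also the 2 members whose CPM in the libraries were over 2-fold apart. Cox6a2, the muscle isoform of subunit VIa (chr7:128205435-128206387), had 136 and 119 counts, or 5.82 and 2.89 CPM, a log2 ratio of -1.01 (-0.78 with TMM sizes). Its 95% Poisson intervals, 4.88 to 6.88 and 2.40 to 3.46 CPM, did not overlap. It held 3.54% and 1.47% of the TPM of its subunit, and 10.3% of its exon bases lie under exons of Itgad, an integrin gene of myeloid cells, so some of its reads may be of that gene. Cox6b2, the testis isoform of subunit VIb (chr7:4751792-4753094), had 12 and 82 counts, or 0.513 and 1.99 CPM, a log2 ratio of 1.96 (2.19 with TMM sizes). Its intervals, 0.265 to 0.897 and 1.59 to 2.47 CPM, did not overlap either, and it held 0.220% and 0.787% of its subunit. The 6 markers of skeletal or cardiac muscle summed to 6.07 and 7.85 CPM, of which Myl2 took 5.94 and 7.78 CPM while Myh6, Myh7 and Tnnt2 were at 0 counts in both libraries, and the 8 markers of pericytes or smooth muscle summed to 1.80 and 9.04 CPM, of which Acta2 took 0.898 and 7.68 CPM while Myh11 was at 0 in both. Their part in the levels of these isoforms was not tested.

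In complex V, the F1 head, where ATP is made, took 1687 and 1919 CPM over 5 genes. The catalytic subunit Atp5b (chr10:128083273-128090391) was the most abundant member of all by CPM, with 786 and 903, and Atp5a1, the subunit that alternates with it in the head, followed with 479 and 520 CPM. Per length they had 527 and 488 TPM and 434 and 380 TPM. The central stalk subunit Atp5c1 had 318 and 339 TPM, and the other small subunits of F1 were lower, Atp5d at 214 and 183 TPM and Atp5e at 104 and 78.4 TPM. Over principal transcripts Atp5e (310 and 237 TPM) was above Atp5d (209 and 181 TPM), so their order depended on the length used. The order of abundance followed that of the number of copies in the enzyme for Atp5b and Atp5a1 over Atp5c1 on the exon-union scale, but over principal transcripts Atp5a1 (394 and 350 TPM) and Atp5c1 (372 and 403 TPM) did not differ beyond their spread.

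The peripheral stalk, which holds the head still, was read from Atp5f1 (215 and 278 CPM), Atp5j (119 and 193 CPM), Atp5h (115 and 141 CPM) and Atp5o (75.2 and 84.4 CPM). Exons of Atp5o are shared over 47.9% of their bases with other genes, among them a second gene of the same symbol, which leaves its level uncertain. By mean TPM over exon unions, the lowest complex V subunits were the membrane subunits Atp5l (12.8 and 14.4 TPM) and Atp5j2 (73.7 and 73.8 TPM) and the c-subunit gene Atp5g1 (62.1 and 39.9 TPM), with Atp5g2 (98.3 and 57.8 TPM) below Atp5j2 in library 2. Atp5l and Atp5j2 have long annotated exon unions, and over principal transcripts they stood at 108 and 124 TPM and at 182 and 186 TPM. Atp5l also has near-identical stretches in 11 other genes, 9 of them pseudogenes, over 86.8% of its transcript. Reads could have been lost to these, which leaves its level uncertain. Atp5s, the coupling factor, had 13.6 and 19.4 CPM, or 19.0 and 21.8 TPM.

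The c subunit, which forms the rotating ring, is made from 3 genes whose mature proteins are the same, and here the libraries differed in the mix. Atp5g1 (chr11:96068852-96075670) had 107 and 85.4 CPM, Atp5g2 (chr15:102662864-102672352) had 57.9 and 42.3 CPM, and Atp5g3 (chr2:73908447-73911326) had 87.1 and 158 CPM. Atp5g3 was the highest of the 3 by CPM in library 2 and Atp5g1 in library 1. The sum of the 3 was 252 and 285 CPM, a log2 ratio of 0.18, close to that of the other members, while the log2 ratios of the single genes were -0.33, -0.45 and 0.85. Atp5g3 took 41.5% and 62.9% of their TPM, Atp5g2 35.9% and 22.0%, and Atp5g1 22.6% and 15.1%. By counts the shares of Atp5g3 were 34.5% (95% Wilson interval 33.3% to 35.8%) and 55.2% (54.3% to 56.1%), so the difference between the libraries was larger than counting error. With 1 library a side, mouse, sorting and library preparation cannot be told apart. The part of the neutrophil lineage RNA in this mix was not tested. After adjustment for GC content and transcript length Atp5g1 turned to 0.29, whereas Atp5g2 and Atp5g3 remained at -0.42 and 0.82. Atp5g1 and Atp5g2 each have 2 pseudogenes near-identical in part, to which reads could have been lost, and Atp5g3 has none.

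Across all members the libraries differed little. The log2 ratio of CPM, library 2 over library 1, had a median of 0.24 over the 91 counted members, with an interquartile range of 0.30 and a standard deviation (SD) of 0.33. Over all 13445 counted genes the median was -0.26, the interquartile range 1.30 and the SD 1.06. Of the members, 2 of 91 differed by more than 2-fold, 1 in each direction, while 31.7% of all counted genes did, 5.74% of them higher in library 2 and 25.9% lower. A higher CPM in library 2 by any amount was found for 81 of 91 members against 38.5% of all counted genes. The members thus lay in a narrow band a little above 0, within a much wider spread of all genes that leaned to the other side.

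**Figure D4:**
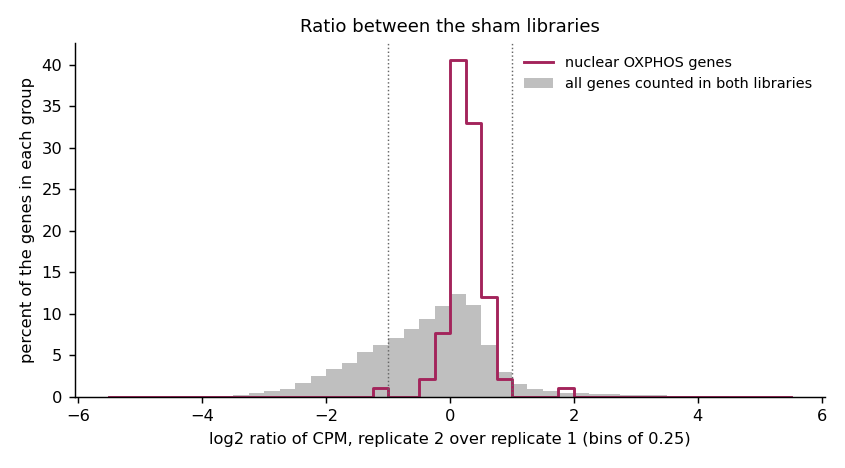
Percent of genes in bins of log2 ratio (CPM of library 2 over that of library 1), for all 13445 counted genes as grey bars and for the 91 counted members as a line. Dotted lines mark 2-fold. The members concentrate between 0 and 0.5, while the genes as a whole spread widely with a long tail of genes lower in library 2.

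The size of these ratios, and the direction of some, rests on the scaling. Other size factors moved the median of all genes from -0.26 to -0.03 (TMM) or 0.01 (DESeq2). The members' median moved from 0.24 to 0.47 (TMM) or 0.51 (DESeq2) and so stayed positive. Relative to the median of all genes the members stood 0.50 higher, a distance that no scaling can change, since it moves all genes alike. Of the 10 members lower in library 2 by CPM, 4 remained lower with TMM sizes and 3, Cox6a2, Atp5g1 and Atp5g2, with DESeq2 size factors. Sdhc (1.05) and Atp5g3 (1.08) passed 2-fold with TMM sizes. The median log2 ratio was 0.23 for complex I, 0.51 for complex II, 0.27 for complex III, 0.24 for complex IV and 0.18 for complex V, with 32 of 36, 4 of 4, 7 of 8, 12 of 13 and 13 of 16 counted subunit genes higher in library 2 against the 38.5% of all genes.

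The ratio between the libraries moved with transcript length in all genes, and the members are short. Their longest transcripts had a median of 1200 bases, against 3106 bases for all counted genes, while their GC content, 49.8%, was near the 49.2% of all. With the counted genes split by length into 3 groups of equal size, the median log2 ratio of the shortest group was 0.10 over all genes and 0.29 over its 72 members. In the middle group it was -0.18 over all genes and 0.21 over 14 members, and in the longest group -0.90 over all genes and 0.11 over 5 members. The members' median fell less over these groups than that of all genes, but the last group rests on 5 members. Of these, Ndufb7 and Atp5l (log2 ratio 0.49 each) have principal transcripts of only 623 and 544 bases. Ndufb2, Sdhaf3 and Atp5g1, long in their principal transcripts too, had 0.04, 0.11 and -0.33. How the ratio of long members moves with length therefore cannot be read from this group. With each ratio taken relative to genes of like GC content and length, the members' median was 0.21, and 74 of 91 were above 0 against 6690 of 13439 of all genes, so their distance from all genes narrowed from 0.50 to 0.21. Level bears on the spread as well. In the highest of 3 groups of equal size by CPM, which holds 74 of the 91 members, 24% of all genes and 0 of these members differed by more than 2-fold, and in the lowest group, with 5 members, 36% of genes and 2 members did. The neutrophil lineage signal given above also differed between the same libraries, and its part in these ratios was not tested.

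**Figure D5:**
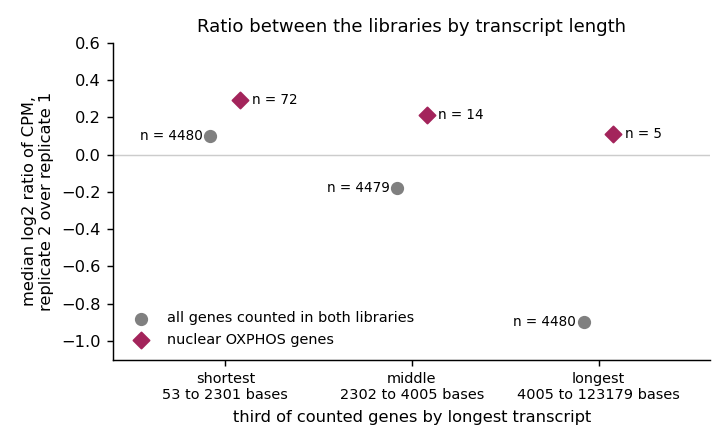
Median log2 ratio of CPM, library 2 over library 1, in 3 groups of the counted genes of equal size by longest transcript, for all genes (circles) and for the members (diamonds), with the number of genes beside each symbol. The median of all genes falls from 0.10 to -0.90 with length, while that of the members lies between 0.11 and 0.29. The longest group holds 5 members, among them Ndufb7 and Atp5l, whose principal transcripts are short.

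The mitochondrially encoded partners stood apart from the nuclear genes. All 11 counted genes of the 13 were lower in library 2, with a median log2 ratio of -1.15, and 6 were past 2-fold, against 25.9% of all counted genes. mt-Nd1, a complex I subunit, had 1930 and 867 CPM, and mt-Cytb, of complex III, had 1583 and 1102 CPM. mt-Co1, the catalytic subunit of complex IV, had 1138 and 861 CPM, whereas mt-Co2 had 7.66 and 3.94 CPM and mt-Atp8 0.342 and 0.0972 CPM. The ratio of nuclear to mitochondrially encoded subunit CPM was therefore 1.22 in library 1 and 2.76 in library 2, a quotient that no scaling of the libraries changes. The mitochondrially encoded levels span several orders of magnitude although most are cut from a common precursor, so their sums rest on a few genes, and why the low ones are low was not tested. After adjustment for GC content and length their median was -0.40.

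Other genes of the pathway showed a wider spread than the members. Of 33 assembly factors with other names, 30 were counted, and their median log2 ratio was 0.15. Of these 30, 2 were more than 2-fold lower in library 2, a smaller share than the 25.9% of all counted genes. They were Coa5 (104 and 40.9 CPM) and the complex III factor Ttc19 (14.8 and 2.16 CPM). Of 16 genes of the tricarboxylic acid cycle and pyruvate dehydrogenase, all were counted with a median of 0.13. Only 1 was past 2-fold, Ogdh, the 2-oxoglutarate dehydrogenase, lower in library 2 at 171 and 53.4 CPM, again below the 25.9% of all counted genes. Of 14 regulators of mitochondrial gene expression, 13 were counted with a median of -0.65, and 5 were more than 2-fold lower in library 2, against 25.9% of all genes. After adjustment for GC content and length this median was -0.17. The 5 genes were the coactivator Ppargc1b (4.06 and 0.486 CPM), the nuclear receptor Esrra (27.0 and 6.47 CPM), the mitochondrial DNA polymerase Polg (50.6 and 12 CPM), the mitochondrial RNA polymerase Polrmt (37.0 and 11.7 CPM) and the RNA-binding protein Lrpprc (52.1 and 17.3 CPM). Ppargc1a, the best known coactivator of mitochondrial biogenesis, was at 1 and 36 counts. Nrf1 (67.5 and 55.2 CPM), Gabpb1 (50.2 and 53.3 CPM) and Tfam (23.9 and 30.4 CPM) differed by less than 2-fold.

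Shared sequence limits some single values. Exons of 35 members overlap exons of another gene on either strand, 14 of them over more than 10% of their bases, and 40 members have a near-identical stretch elsewhere in the annotated transcripts, 25 of these in a pseudogene. The 41 counted members with neither had a median log2 ratio of 0.29, and 38 of them were higher in library 2. Subunit genes that the prefixes or the biotype leave out were chosen after their values were seen: Ndufb1-ps had 56.0 and 56.6 CPM, Usmg5 had 54.7 and 61.6 CPM, and the ATP synthase inhibitor Atpif1 had 64.6 and 70.6 CPM.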

How the data were processed

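RNA of sorted microglia from 2 sham-operated mice was measured, each library from 1 brain. cDNA was made with the SMART-Seq HT Kit and sequenced in pairs. The authors mapped reads to GRCm38 with HISAT2 and counted them with HTSeq; versions, annotation release and strand setting are not given in the sources used here. The deposited values are these raw counts per Ensembl gene, without normalization by the authors.

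Identifiers were joined to GENCODE M21 (53706 of 53801 matched), and coordinates are those of the files, counted from 1. Counts were divided by library totals (CPM) or by exon length (TPM), and a gene is termed counted where each library has 10 counts or more for it. Groups came from the sample titles. With 1 group of 2 libraries no test was run and no p-value is given. The log2 ratio was also centred within 10 bins of GC content and 10 of longest transcript length (of GC content alone under 20 genes), a step that, in a simulation over 13439 genes, returned a median of 2.01 for 200 genes shifted by 2. Near-identical stretches had at least 95% identity over 75 bases (blastn 2.17.0). Named are the core subunits, the alternative isoforms, the 3 highest and 3 lowest subunits of each complex by TPM, members past 2-fold and members under 10 counts, and the others as ranges or examples. For 1 gene that this rule covers, the level is not reported here. The alternatives were TMM (edgeR 4.0.16) and DESeq2 1.42.0 size factors, totals without mitochondrial genes, other filters, lengths and thresholds, and leaving out each library; 4 were added after seeing the data. Members and lists were chosen with earlier results of these data known. Python 3.11.15, pandas 2.3.3, scipy 1.17.1 and R 4.3.3 were used.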

Additional observations from a re-analysis of the deposited data

How the results depend on the processing

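No paired analysis was possible because both libraries belong to 1 group. The median log2 ratio of the members, 0.24, became 0.47 with TMM sizes and 0.51 with DESeq2 size factors. Members past 2-fold, 2 as reported (31.7% of all genes), became 3 with TMM (28.5%) and 3 with DESeq2 factors (28.2%). They became 5 after adjustment for GC content and length (22.4%) and 5 with at least 1 count in both libraries (38%). With a mean of at least 100 counts 1 was past 2-fold (30.6%), and 1 without members that overlap or resemble other genes (31.7%). At 1.5-fold 12 members were past the threshold, and the share of all genes at 1.5-fold is not given here. Under the adjustment for GC content and length Ndufb7 reached 2.03, its longest transcript being listed at 4435 bases and its principal one at 623. With principal lengths, an alternative added after seeing the data, 3 members were past 2-fold (21.5% of all genes). The median of the 91 counted members was then 0.18. By counts the mean share of Cox7a2 was 99.2% (98.6% by TPM), of Atp5g1 36.2% (18.9%) and of Atp5g2 18.9% (28.9%), and over principal transcripts that of Atp5g1 was 8.19%. Summed levels per complex and members counted moved by less than the spread between the libraries or by less than 1.5 times under every alternative run on them, and leaving out either library changed each mean by less than 1 SD, as it must with 2 values. Of the 94 members with any count, the TPM of 71 moved by more than 1 SD with principal and 66 with longest transcripts, so single TPM values are uncertain to that extent. With 2 libraries, a mean or SD is imprecise whatever the depth.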
